A study of Mus musculus with 12 samples.

Results

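The comparison set a mouse macrophage line against a mouse ovarian cancer line after both had received rebastinib. It rests on the 6 treated libraries of a series of 12: 3 of PMJ2R, labelled as C57BL6J macrophages from female peritoneal lavage that carry the v-raf and v-myc oncogenes, and 3 of ID8, labelled as C57BL6J wildtype female ovarian epithelium. Both treated groups had received 5 nM rebastinib for 6 h. The remaining 6 libraries, 3 per line, are labelled as controls and served as the background measurement. Messenger RNA was sequenced from cell pellets, and the values are deposited counts per gene. Each line is 1 established culture line, so the comparison is between these lines and not between macrophages and ovarian tumours in general. Per the labels' protocols, the lines were grown in different media, and trypsin is described for ID8 alone. Line, medium and detachment cannot be told apart.

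Macrophages are phagocytes of the innate immune system. Their lineage factor PU.1, encoded by Spi1, binds purine-rich boxes near genes for the immune receptors, lysosomal enzymes and oxidase that equip them to take up and destroy particles. Ovarian surface epithelium is a mesothelium-like layer whose cells hold keratins, cell junctions and a basement membrane and are marked by Wt1, Msln and Gata4. Rebastinib is a kinase inhibitor that holds its targets in an inactive state. It is best known for acting on TIE2, the angiopoietin receptor encoded by Tek, and on ABL1. In tumours TIE2 is found on endothelium and on a subset of macrophages.

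The treated libraries held 19025504 to 20242502 counts in PMJ2R and 19057954 to 24971090 in ID8. Genes with at least 10 counts numbered 12890 to 12987 in PMJ2R and 13575 to 14106 in ID8. The 3 gene models that overlap ribosomal RNA took 5.82% ± 0.184 (SD, n = 3) of the counts in PMJ2R and 1.23% ± 0.319 in ID8, against 0.128% and 0.211% in the control libraries. Their part in the line differences was not tested. Leaving these models out before scaling moved no count of calls or classes over all genes by over 1.5 times. Of the list counts, the heat shock genes higher in PMJ2R fell from 2 to 1. No replicate pair agreed within sampling noise. Nothing in the labels says that the replicates were separate cultures. The p-values then measure no more than the spread between these libraries, which may be technical.

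The labelled cell types matched their markers. All 22 of the 30 listed macrophage markers that could be tested were higher in PMJ2R, and their summed level was 3018 to 3048 CPM (counts scaled to library size) in PMJ2R and 100.8 to 110.1 in ID8. All 20 testable ovarian-mesothelial markers of 26 were higher in ID8, with summed levels of 3775 to 4071 CPM against 1.60 to 2.16 in PMJ2R. A marker absent from 1 line passed the filter on low counts through the other line alone. For such markers the counts only restate which line held them. The macrophage markers Cd163, Marco, Mertk and Timd4 had at most 3 counts over the 3 libraries of each line. Markers of other cells stayed low: T and NK cell markers summed to 10.5 to 12.1 CPM in PMJ2R and 2.95 to 5.35 in ID8, and neutrophil and mast cell markers to 0.885 CPM or less in every treated library. B cell markers summed to 106.8 to 108.6 CPM in PMJ2R, of which Ighm, the IgM heavy chain gene, made up 99.7, 98.5 and 99.9 CPM. Cd79b and Igkc had no count there. Endothelial markers summed to 27.5 to 29.1 CPM in PMJ2R and 65.2 to 74.5 in ID8. The part of these other markers in the line differences was not tested. In bulk libraries fewer cells of a type and less RNA per cell cannot be told apart.

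Large groups of genes differed between the treated lines, and a group of similar size was shared. Of 14496 genes tested with edgeR's quasi-likelihood test, 3171 (21.9%) were called higher in PMJ2R and 3838 (26.5%) higher in ID8, where called means a Benjamini-Hochberg adjusted p under 0.05 and at least a 2-fold difference. A further reading asked which genes shared a level. For 5706 genes (39.4%) the 95% interval of the log2 difference lay wholly within 1 unit of 0, which means within 2-fold. All log2 differences are PMJ2R minus ID8, so a positive value is higher in the macrophage line. An error after ± is the SD over 3 libraries for CPM and the SE of the fit for a log2 difference. Their median over all tested genes was -0.027, and it moved to -0.18 when library totals replaced TMM scaling.

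**Figure D1:**
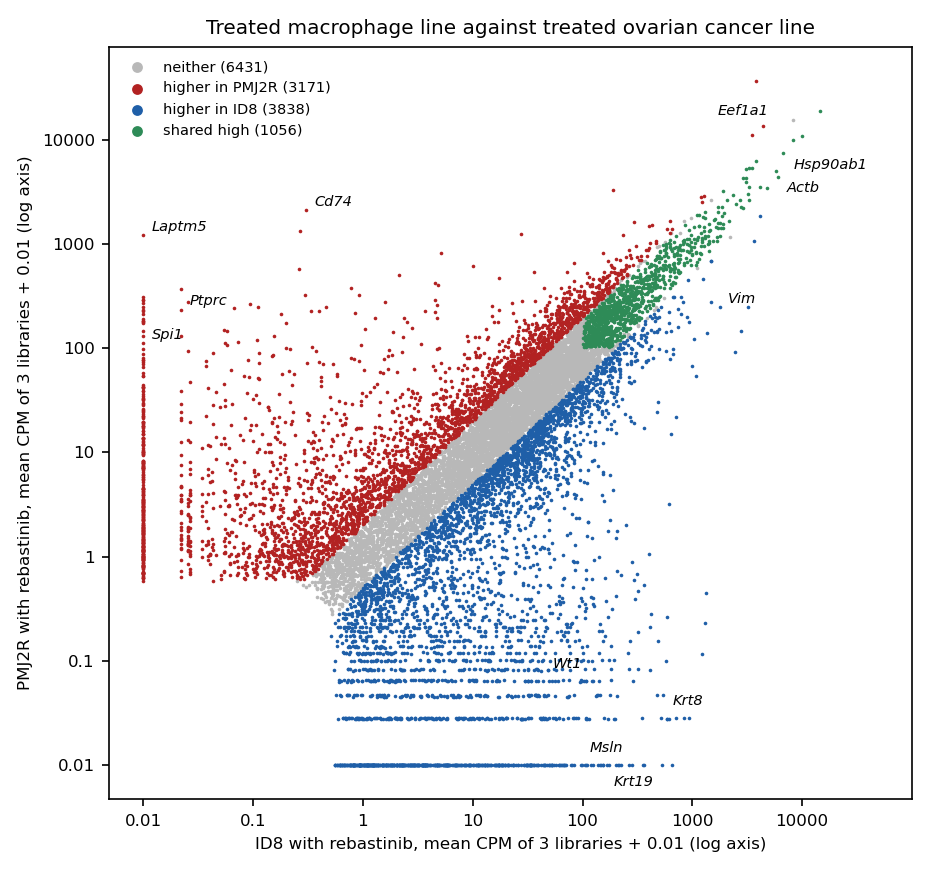
Mean CPM of each tested gene in the 3 rebastinib-treated ID8 libraries (horizontal, log axis, 0.01 added) and the 3 treated PMJ2R libraries (vertical, log axis, 0.01 added). Red and blue points are the 3171 and 3838 genes called higher in PMJ2R and in ID8, and green points are the 1056 genes that shared a high level. The rows of points along the edges are genes with no count or a single count in 1 line, such as Laptm5 and Krt19.

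The genes with the largest folds toward PMJ2R were leukocyte genes, and all but Cd74 had no count or a single one in the ID8 libraries. Laptm5 (ENSMUSG00000028581, GRCm38 chr4:130913125-130936141), a lysosomal membrane protein of blood cells, stood at 1260.1, 1237 and 1204 CPM in the PMJ2R libraries with no count in ID8, which makes it at least 28385-fold higher against a floor of 3 counts over the 3 ID8 libraries. Ptprc, which encodes the leukocyte phosphatase CD45, stood at 379, 370.3 and 376 CPM in PMJ2R. Its single ID8 count gives a ratio of 25881 (95% counting interval 4645 to 1022300). The groups of these genes lie far apart, and no library of 1 line approached the other. Nckap1l and Rac2, which build leukocyte actin networks, had ratios of 19438 (95% counting interval 3488 to 767800) and 16210 (95% counting interval 2909 to 640300). Cd74, the invariant chain of MHC class II, was the most abundant of the 12 genes of largest fold by CPM, at 2166, 2175 and 2086 CPM in PMJ2R and 0.23, 0.404 and 0.255 CPM in ID8 (log2 difference 12.82 ± 0.13, SE, adjusted p = 3.36e-17). Here the 3 ID8 libraries held 20 counts between them. Adgre1, the F4/80 antigen, Lyz2, the macrophage lysozyme, and Ctss, the lysosomal protease cathepsin S, had no count in ID8 and were at least 6316-fold, 6751-fold and 5769-fold higher in PMJ2R. Wdfy4, Hcls1, Plxnc1 and Itga4 completed the 12, with PMJ2R means of 309 ± 18.3, 292 ± 4.24, 94.8 ± 4.08 and 131 ± 1.99 CPM (SD, n = 3) and at most 1 count in ID8. Exons of Itga4 overlap Cerkl on the opposite strand, and no source used here states the strand setting of the counting. Values of such genes are uncertain, which also touches Csf1r (with Hmgxb3), Myd88 (Acaa1a), H2-DMa (Brd2), Mcm7 (Cops6), Gnl3 (Pbrm1), Gapdh (Iffo1), Pfkp (Pitrm1) and Cebpd (Spidr) below.

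Transcription factors of the myeloid lineage split between the lines. Of 17 listed factors tested, 8 were higher in PMJ2R, 5 higher in ID8 and 4 within 2-fold, with a median log2 difference of 0.22. Over all genes tested these shares were 21.9%, 26.5% and 39.4%, and the 5 in ID8 lie near theirs. Spi1 stood at 176, 181 and 175 CPM in PMJ2R with no count in ID8, at least 4083-fold higher. Ikzf1, the lymphoid and myeloid factor Ikaros, was at least 4863-fold higher, and Runx3 stood at 60.6 ± 5.36 CPM against 0.204 ± 0.106. The lineage factor itself was therefore read in PMJ2R and not in ID8. Gata6, which marks resident peritoneal macrophages as well as mesothelium, was at 0, 0.157 and 0 CPM in PMJ2R and 93.9, 91.8 and 97.7 CPM in ID8, and its 3 PMJ2R counts make it higher in ID8 by a ratio of 1747 (95% counting interval 597 to 8473) with adjusted p = 6.32e-15. Maf, another macrophage factor, also lay lower in PMJ2R (0.0922 ± 0.0845 against 43.5 ± 2.4 CPM). Neither of these factors followed the macrophage label.

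Because PU.1 marks the macrophage line, promoter windows of the genes with large line differences were searched on both strands for the letters of the PU.1 box, GAGGAAGT. The windows are the 250 bases before each RefSeq gene start (GRCm38.p6). The box was present in 7.11% of 450 windows of genes at least 32-fold higher in PMJ2R (344 of 578 such genes had a window) and in 1.92% of 1044 windows of genes at least 32-fold higher in ID8 (775 of 1112). All 32851 windows gave 2.44%, and tested genes 2.51%. None of the windows of the 12 genes with the largest PMJ2R folds held it, and it was found for 3 of the 43 leukocyte and macrophage list genes of at least 32-fold with a window. Both shown here lie on the plus strand and are printed because their box begins 20 and 11 bases before the start: Inpp5d (chr1:87620062-87620311) encodes the phosphatase SHIP1, which restrains leukocyte signalling, and Vav1 (chr17:57278850-57279099) a guanine nucleotide exchange factor of blood cells. Capitals mark the box.
Inpp5d: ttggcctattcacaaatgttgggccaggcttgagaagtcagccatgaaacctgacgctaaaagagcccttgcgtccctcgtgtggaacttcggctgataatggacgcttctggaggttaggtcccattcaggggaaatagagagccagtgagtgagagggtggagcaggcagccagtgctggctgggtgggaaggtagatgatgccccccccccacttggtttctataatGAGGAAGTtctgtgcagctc
Vav1: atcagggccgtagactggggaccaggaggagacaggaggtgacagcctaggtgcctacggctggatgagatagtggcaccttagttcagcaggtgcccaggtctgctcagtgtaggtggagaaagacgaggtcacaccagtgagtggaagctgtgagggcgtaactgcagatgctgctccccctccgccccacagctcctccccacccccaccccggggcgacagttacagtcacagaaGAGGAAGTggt
Inpp5d stood at 145, 147 and 151 CPM and Vav1 at 65.6, 68.9 and 66.2 CPM in the treated PMJ2R libraries, and neither had a count in treated ID8. A match is a description of letters and shows no binding. Both genes were chosen after their values were seen.

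Leukocyte machinery beyond these factors was higher in PMJ2R throughout the tested genes. Of all genes tested, 21.9% were higher in PMJ2R. All 25 tested genes of the leukocyte signalling list were higher in PMJ2R (median log2 difference 11.18), as were all 6 of the phagocyte oxidase and all 7 tested of MHC class II. Members without a count in ID8 passed the filter on low counts through PMJ2R alone. Lcp1, the leukocyte actin bundler plastin, stood at 1341, 1343 and 1333 CPM against 0.23, 0.353 and 0.182 in ID8, and Coro1a, coronin, at 572 ± 21.9 against 0.252 ± 0.0893 CPM. Cd53, Dock2, Plcg2 and Fermt3 had log2 differences of 11.49 ± 0.13, 11.18 ± 0.13, 11.90 ± 0.14 and 8.45 ± 0.11 (SE). The oxidase makes superoxide in phagosomes. Its catalytic subunit Cybb stood at 80.7, 81 and 80.8 CPM and its partner Cyba at 186, 183 and 175 CPM in PMJ2R, and the cytosolic subunits Ncf1 and Ncf4 at 36.7 ± 1.16 and 32.5 ± 1.08 CPM. ID8 had no count of Cybb, Cyba, Ncf1 or Ncf4. Of the class II genes, H2-Oa and H2-Eb1 were low even in PMJ2R, at 1.81 ± 0.132 and 1.69 ± 0.437 CPM. Per transcript length, Cd74 was at 3127 TPM (counts per transcript length, scaled to library size) and H2-Eb1 at 2.13. Ifi30, a lysosomal thiol reductase, and H2-DMa, a peptide loading chain, were read in both lines, at 306 ± 3.29 and 15.4 ± 1.65 CPM in PMJ2R and 131 ± 12.4 and 4.29 ± 0.0936 in ID8.

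Innate sensing, MHC class I and lysosomal genes divided between the lines. Over all genes tested, 39.4% were within 2-fold. Toll-like receptor genes divided into 9 higher in PMJ2R, 2 higher in ID8 and 4 within 2-fold among 16 tested (median 1.14). The 9 fell to 7 under library totals and to 6 with length and GC trends removed (medians 0.98 and 0.78). Unc93b1, which carries nucleic acid sensing receptors to endosomes, stood at 286, 302 and 285 CPM against 3.87, 5.25 and 4.55. Cd14, Tlr2 and the adaptor Myd88 had log2 differences of 3.21 ± 0.074, 5.49 ± 0.21 and 2.23 ± 0.078, while the kinase gene Irak2 was higher in ID8 (-2.73 ± 0.11). Of 14 class I genes, 6 were higher in PMJ2R, 2 higher in ID8 and 4 within 2-fold. The class I heavy chain H2-K1 stood at 392, 373 and 361 CPM in PMJ2R and 64.7, 66.5 and 59.9 in ID8, and the immunoproteasome subunits Psmb8 and Psmb9 had log2 differences of 3.80 ± 0.12 and 3.95 ± 0.24. The peptide transporter Tap2 was also higher in PMJ2R (2.96 ± 0.10), and the loading factor Tapbp higher in ID8 (-1.85 ± 0.06). Erap1, which trims peptides, was 67.1 ± 1.4 against 35.6 ± 2.25 CPM and did not reach a 2-fold difference. Phagocytic and lysosomal genes gave 8 higher in PMJ2R, 5 higher in ID8 and 11 within 2-fold of 25. Ctsc and Lipa, a protease and the acid lipase, were higher in PMJ2R (2.38 ± 0.065 and 2.67 ± 0.077). Cd63, a tetraspanin of late endosomes, was the reverse, at 0, 0.105 and 0.111 CPM in PMJ2R and 470.0, 433 and 343 in ID8, and so was Tfeb, a regulator of lysosomal genes (-3.59 ± 0.14).

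**Figure D2:**
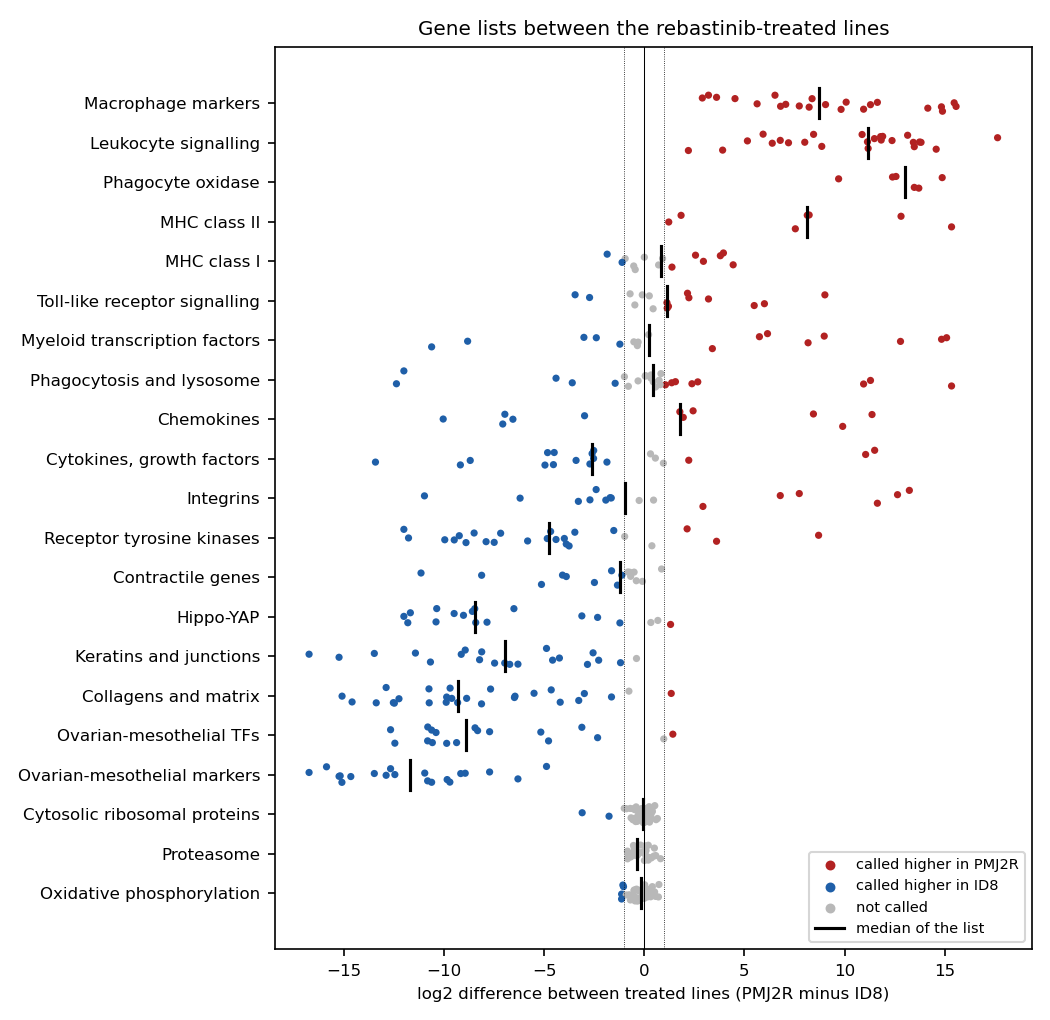
Log2 differences between the treated lines (PMJ2R minus ID8, horizontal) of the tested members of 21 gene lists (rows), 1 point per gene, red where called higher in PMJ2R, blue where called higher in ID8 and grey where not called. Black bars are list medians, and dotted lines mark 2-fold. Macrophage and leukocyte lists lie to the right, epithelial and matrix lists to the left, and ribosomal, proteasome and respiratory genes stay near 0.

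Toward ID8, the 12 genes with the largest folds included keratins and genes of the extracellular matrix, beside genes of neither group. Krt8 (ENSMUSG00000049382, chr15:101996698-102004482), a simple-epithelium keratin, stood at 953, 972 and 869 CPM in the ID8 libraries, and 1 count was found in PMJ2R, a ratio of 51126 (95% counting interval 9176 to 2019400). Krt18, its pairing partner, had a ratio of 13139 (95% counting interval 3637 to 108500). Krt19 stood at 701, 659 and 612 CPM without a count in PMJ2R, at least 12043-fold higher. For these keratins no PMJ2R library approached any ID8 library. Serpinh1, the collagen chaperone HSP47, had a ratio of 46212 (95% counting interval 8294 to 1825300), and Hspg2, the basement membrane proteoglycan perlecan, of 32973 (95% counting interval 5918 to 1302400). Tm4sf1, Chchd10, Pcolce, Fbln2, Cnn3, Tinagl1 and Perp made up the rest of the 12, at ID8 means of 711, 612, 589.6, 518, 350, 543 and 197 CPM and at most 2 counts in PMJ2R. Pcolce shares exons with Fbxo24, and Chchd10 overlaps Mmp11 on the other strand, so their reads could be split.

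Keratin, junction and matrix genes were mostly higher in ID8, and integrins were split. Over all genes tested, 26.5% were higher in ID8, 21.9% higher in PMJ2R and 39.4% within 2-fold. Of 21 keratin and junction genes tested, 20 were higher in ID8 and 0 in PMJ2R. Jup, plakoglobin, stood at 1.83, 1.94 and 2.27 CPM in PMJ2R and 263, 241 and 250.3 in ID8, and Gja1, connexin 43, at 0.344 ± 0.0383 and 104 ± 7.39 CPM. The tight junction protein gene F11r had a log2 difference of -4.58 ± 0.078. Matrix genes counted 25 higher in ID8 and 1 in PMJ2R of 27 (median -9.32). Sparc and Bgn, secreted matrix proteins, reached 1315 ± 46.9 and 1222 ± 48.9 CPM in ID8 against 0.219 ± 0.114 and 0.107 ± 0.105 in PMJ2R. The basement membrane collagens Col4a1 and Col4a2 were higher in ID8 too, Col4a1 by a log2 difference of -10.75 ± 0.15 and Col4a2, with 2 counts in PMJ2R, by a ratio of 5667 (95% counting interval 1568 to 46799). The matrix gene called higher in PMJ2R was P4ha1, named after its values were seen, a proline hydroxylase of collagen, at 88.7 ± 1.84 against 34.8 ± 2.57 CPM. Contractile genes showed 9 of 16 higher in ID8 and 4 within 2-fold. Cald1, caldesmon, had the smallest p there (-11.14 ± 0.13), and Tpm1, tropomyosin, was at 66.3, 66.1 and 69.8 CPM in PMJ2R and 982, 1051 and 966 in ID8. Of 16 integrin genes tested, 6 were higher in PMJ2R, 8 higher in ID8 and 2 within 2-fold. Itga4, Itgal and Itgb2, of leukocyte integrins, were higher in PMJ2R, with Itgal and Itgb2 at 58.2 ± 4.22 and 106 ± 1.48 CPM, whereas Itga3, Itga6 and Itgav, which bind laminin or RGD-bearing matrix proteins, were higher in ID8 (-10.97 ± 0.13, -3.29 ± 0.092 and -2.40 ± 0.089).

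Identity factors and Hippo pathway genes followed the same side. The shares over all tested genes were 26.5% higher in ID8 and 21.9% higher in PMJ2R. Of 18 ovarian-mesothelial transcription factors, 16 were higher in ID8 and 1, the repressor gene Zeb2 (named after its values were seen), was higher in PMJ2R (49.5 ± 0.469 against 18.3 ± 3.03 CPM). The count higher in PMJ2R fell to 0 with length and GC trends removed. Wt1 stood at 102, 103 and 120.4 CPM in ID8 and 0.0553, 0.0523 and 0.0553 in PMJ2R, and Gata4 at 151, 156 and 162 CPM against 1 PMJ2R count. The Hippo pathway restrains the coactivators YAP and TAZ, which act through TEAD factors. Its list gave 15 of 18 genes higher in ID8 and 1 in PMJ2R (median -8.44). Yap1 stood at 0.387, 0.261 and 0.332 CPM in PMJ2R and 126, 122 and 133 in ID8, Wwtr1, which encodes TAZ, at 0.89 ± 0.287 and 81.1 ± 3.1 CPM, and Tead1 at 0.0728 ± 0.0328 and 106 ± 14.4 CPM. The macrophage line had few counts of the coactivators and of the factor they bind. Ajuba, of the same pathway, had 3 counts in PMJ2R and was higher in ID8 by a ratio of 799 (95% counting interval 273 to 3878), and Amotl2 had a log2 difference of -8.46 ± 0.22.

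The genes of rebastinib's known targets and their ligands were unevenly read, and the best-known one was nearly absent. Tek (chr4:94739289-94874976), which encodes TIE2, had 2 counts over the 3 treated PMJ2R libraries and 0 in ID8, with 8 and 0 in the controls. Its relatives were low too: Tie1 had 6 and 0 counts, Kdr, the VEGF receptor 2 gene, 2 and 0, and the ligands Angpt1 and Angpt4 0 and 3 in PMJ2R and 1 and 0 in ID8. No fold is given for genes at this depth. Angpt2, a TIE2 ligand that can block the receptor, was tested and stood at 3.1, 4.13 and 2.88 CPM in PMJ2R and 0.23, 0.252 and 0.4 in ID8 (log2 difference 3.45 ± 0.30, adjusted p = 7.23e-08). Abl1, the other best-known target gene, was read in both lines, at 31.5, 33.8 and 33.3 CPM in PMJ2R and 54.9, 50.1 and 60.3 in ID8, with a log2 difference of -0.75 ± 0.083 whose 95% interval, -0.92 to -0.57, lay within 2-fold. Under library totals 0 genes of this list were within 2-fold, so that reading depends on the scaling. Its paralog Abl2 was higher in PMJ2R at 248 ± 1.98 against 77.2 ± 4.93 CPM. The Src-family kinases went opposite ways. Src stood at 38.3, 35.6 and 40.9 CPM in ID8 with 4 counts in PMJ2R (log2 difference -8.93 ± 0.24), whereas Lyn stood at 120.2, 115 and 119 CPM in PMJ2R and 23.5, 26 and 27.2 in ID8. Fgr and Flt3 had no count in ID8 and were at least 35.8-fold and 57.9-fold higher in PMJ2R, at 1.55 ± 0.39 and 2.51 ± 0.199 CPM. Csf1r, the receptor that macrophages need for survival, was at 129, 127 and 126 CPM in PMJ2R and 12.2, 9.28 and 9.75 in ID8, and all 3 PMJ2R libraries lay above all 3 of ID8. In all, 6 of the 8 tested genes of the 14 were higher in PMJ2R, 1 in ID8 and 1 within 2-fold. These shares were 21.9%, 26.5% and 39.4% over all tested genes.

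Other receptor tyrosine kinases were mostly an ID8 group, with 19 of 24 tested higher there and 3 higher in PMJ2R, namely Csf1r, Flt3 and Erbb3, the last named after its values were seen. Axl stood at 308, 337 and 318 CPM in ID8 with 4 counts in PMJ2R. Egfr, Met, Igf1r, Fgfr1 and the collagen receptor Ddr1 averaged 89.1, 60, 80.4, 96.1 and 108 CPM in ID8 and 0.181, 0.0543, 0.219, 0.394 and 0.742 in PMJ2R. Of the growth factor and cytokine genes, 13 of 19 were higher in ID8 and 3 in PMJ2R. All tested genes gave 26.5% higher in ID8 and 21.9% higher in PMJ2R. The EGF receptor ligand Ereg was at 57.4, 71.6 and 69.1 CPM in ID8 with no PMJ2R count, at least 1219-fold higher, and Areg at 14 ± 1.26 CPM against 1 count. Csf1, the ligand of the receptor that PMJ2R held, was higher in ID8, 72.4, 79.4 and 70.2 CPM against 10.6, 12.7 and 15.2. Each line held the higher level of opposite members of this pair. Tgfb2 was higher in ID8 (-4.83 ± 0.20), and so was Tgfb3, by a ratio of 487 (95% counting interval 134 to 4025) from 2 counts in PMJ2R. Tnf, the inflammatory cytokine gene, was at 16.1, 17.4 and 19.1 CPM in PMJ2R and had no count in ID8, at least 403-fold higher.

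Chemokine genes split 6 to 5 among 11 tested. Over all genes tested, 21.9% were higher in PMJ2R and 26.5% higher in ID8. Ccl3 and Cxcl14 were found in PMJ2R, at 16 ± 1.63 and 5.78 ± 1.19 CPM, with no count in ID8. Ccl2, which draws monocytes, was at 53.7, 53.4 and 55.3 CPM in PMJ2R and 11.6, 9.54 and 8.87 in ID8. Cxcl12 and Cxcl16 belonged to ID8, at 44.3 ± 4.55 and 27.8 ± 1.98 CPM against 0.0369 ± 0.0639 and 0.292 ± 0.226, and so did Cx3cl1 (-2.98 ± 0.20). Of the angiogenic factors, the VEGF co-receptor genes differed in direction: Nrp1 was higher in PMJ2R (2.21 ± 0.063) and Nrp2 higher in ID8 (-2.98 ± 0.089). Vegfc and Thbs1 were higher in ID8 (-5.20 ± 0.22 and -5.50 ± 0.26), as was Angptl2 (-1.51 ± 0.14). Among interferon-stimulated genes 8 of 22 were higher in PMJ2R and 6 in ID8, which turned to 7 and 8 under library totals. The 6 in ID8 lie near the share over all genes tested. Irf1, Ddx58 and Oasl1 stood on the ID8 side (-2.87 ± 0.12, -2.0 ± 0.14 and -4.90 ± 0.38), and Oas1a, Bst2 and the receptor gene Ifnar2 on the PMJ2R side (4.59 ± 0.20, 1.66 ± 0.11 and 1.42 ± 0.083).

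Most tested genes of the aryl hydrocarbon receptor battery were higher in ID8, while the antioxidant, heat shock and p53 lists were divided between called genes and genes within 2-fold. Over all tested genes, 39.4% were within 2-fold, 26.5% higher in ID8 and 21.9% higher in PMJ2R. The aryl hydrocarbon receptor gene Ahr stood at 18.3, 19.9 and 20.4 CPM in ID8 and 0.111, 0.0523 and 0.0553 in PMJ2R, and 6 of 9 tested genes of its battery were higher in ID8 and 0 in PMJ2R. Cyp1b1 was at 235, 266 and 303 CPM in ID8 against 0, 0.105 and 0.332, and Aldh3a1 at 94.1, 60.8 and 55.6 CPM with no PMJ2R count. Cyp1a1, the classic target of this receptor, also had no count in PMJ2R and was at least 209-fold higher in ID8. Nqo1 gave -8.97 ± 0.13, and Ahrr, with 1 count in PMJ2R, a ratio of 2613 (95% counting interval 469 to 103240) in favour of ID8. Antioxidant genes of the NRF2 list had 8 of 24 higher in ID8, 1 in PMJ2R and 13 within 2-fold. Gsta4 was at 533 ± 94.2 CPM in ID8 without a PMJ2R count, and Gpx4, which detoxifies lipid peroxides, at 97, 100.1 and 96.8 CPM in PMJ2R and 572, 499 and 410.3 in ID8. Osgin1, Me1 and Srxn1 gave -3.11 ± 0.093, -1.70 ± 0.056 and -2.73 ± 0.15. The small heat shock protein genes Hspb1 and Hspb8 had no PMJ2R count and were at least 1273-fold and 2554-fold higher in ID8. Of 16 heat shock genes tested, 5 were higher in ID8, 8 within 2-fold and 2 higher in PMJ2R, the chaperonin gene Hspd1 and Cacybp (1.04 ± 0.064 and 1.00 ± 0.062). The count higher in PMJ2R fell to 1 under RLE scaling, in DESeq2, with length and GC trends removed and without the genes that overlap rRNA, and to 0 under library totals. BMP pathway genes were higher in ID8 in 8 of 15, among them the ligand Bmp4 (43.4 ± 2.63 CPM, 1 count in PMJ2R), the antagonist Grem1 (144 ± 13.2 CPM, no count) and the target Id1 (-3.46 ± 0.11). The receptor gene Bmpr2 and the signal carriers Smad5 and Smad9, named after their values were seen, were the 3 higher in PMJ2R (1.13 ± 0.10, 1.25 ± 0.082 and 1.04 ± 0.16), a count that fell to 1 under library totals and 0 with length and GC trends removed. Of the p53 targets, Cdkn1a, the p21 gene, was at 238, 238 and 238 CPM in PMJ2R and 60.9, 66.4 and 55.5 in ID8, and the death gene Bbc3 gave 2.08 ± 0.078, while Plk2 and Phlda3 were higher in ID8 (-8.90 ± 0.16 and -2.29 ± 0.091). The 20 tested p53 targets split 4 to 4 with 9 within 2-fold, and their median of 0.053 changed sign under library totals, to -0.11, and with length and GC trends removed, to -0.007.

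Myc itself was read almost wholly in ID8. It stood at 75.7, 89.7 and 81.1 CPM there with 1 count in PMJ2R, a ratio of 4525 (95% counting interval 812 to 178740), in a line that carries v-myc. Counts of v-myc are not analysed here. Its dimer partner Max was higher in PMJ2R (150.2 ± 3.6 against 58.6 ± 1.8 CPM). Growth genes of the Myc and ribosome biogenesis list were within 2-fold in 15 of 29, higher in PMJ2R in 10 and higher in ID8 in 3. All tested genes gave 39.4%, 21.9% and 26.5%. Rrs1, Gnl3 and Nolc1, of ribosome assembly, had log2 differences of 1.79 ± 0.061, 1.34 ± 0.059 and 1.26 ± 0.064, and the cap-binding factor Eif4e of 1.32 ± 0.06, which fell to 0.91 once length and GC trends were removed. Of 28 replication genes, 8 were higher in ID8, beside 26.5% of all tested genes, 1 was higher in PMJ2R, beside 21.9%, and 15 were within 2-fold. The helicase subunit Mcm7 stood at 136, 142 and 139 CPM in PMJ2R and 414, 388 and 351 in ID8, and Gins2 at 22.7 ± 0.763 and 77.5 ± 2.35. The cell cycle inhibitors pointed apart: Cdkn1b, the p27 gene, was higher in ID8 (-2.75 ± 0.10) and Rb1 higher in PMJ2R (2.02 ± 0.10). Mcm2 and Mcm6 sat at the edge of the 2-fold limit, at -0.99 ± 0.063 and -0.97 ± 0.057, and were not called; under library totals they passed it at -1.15 and -1.12.

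A high level was common to both treated lines for a large set of genes. Of 1337 genes with at least 100 CPM in all 6 libraries, 1056 (78.98%) were within 2-fold, 147 were called higher in PMJ2R and 67 higher in ID8. Over all tested genes 39.4% were within 2-fold. The 100 CPM limit leaves out every gene low in either line, so a larger share is built into this choice. The 1056 shared high genes held 46.24% of the counts in PMJ2R and 47.72% in ID8. Of the 500 genes with the highest TPM in each line, 349 (69.8%) were in common. Per transcript length the most abundant shared genes were mitochondrially encoded, mt-Nd1 and mt-Co1 leading at 27853 and 29944 TPM in PMJ2R and 27599 and 25070 in ID8. Both encode parts of the respiratory chain. mt-Co1 stood at 18547, 18652 and 19417 CPM in PMJ2R and 14842, 14219 and 14691 in ID8, a log2 difference of 0.37 ± 0.074 with an interval of 0.21 to 0.53. The 6 libraries do not overlap between lines for this gene, yet the difference stayed well inside 2-fold. Ftl1, the ferritin light chain that stores iron, was at 3558, 3598 and 3348 CPM in PMJ2R and 5717, 4591 and 4015 in ID8. Hsp90ab1, the constitutive HSP90 chaperone, was at 7669.9, 7595 and 7503 CPM in PMJ2R and 6871, 6795 and 6397 in ID8. Actb, cytoplasmic actin, gave -0.21 ± 0.084 (interval -0.39 to -0.033). The remaining genes of the leading 15 were mt-Cytb, mt-Nd2, mt-Nd4, mt-Nd5 and mt-Nd6, and the ribosomal protein genes Rplp0, Rplp1, Rpl8, Rpl36 and Rps15, with log2 differences from -0.41 to 0.71.

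**Figure D3:**
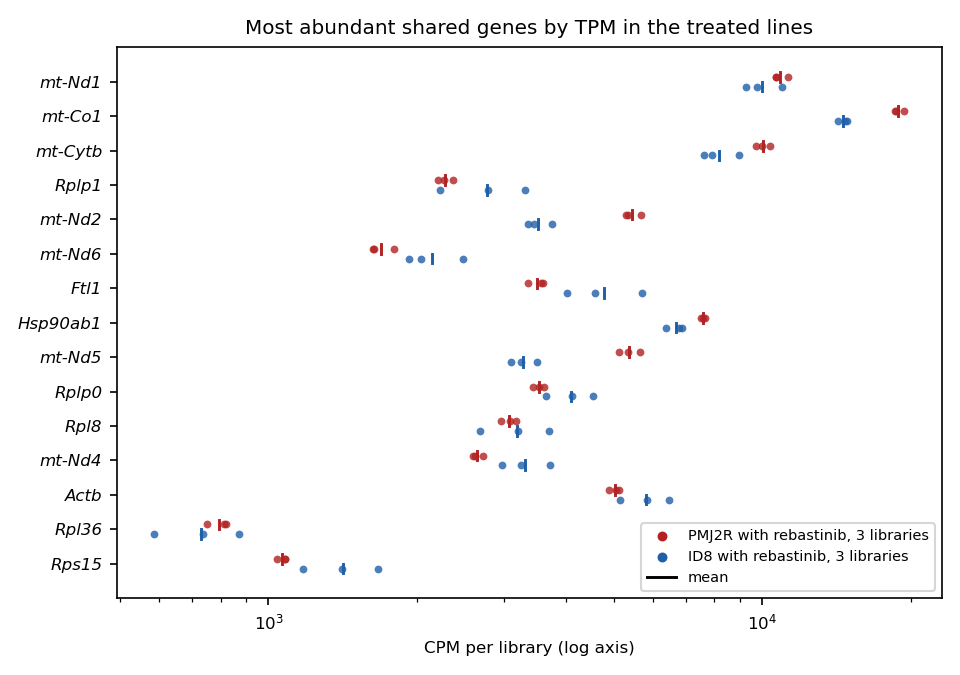
CPM per library (horizontal, log axis) of the 15 shared high genes with the highest TPM, in the order of their TPM. Red points are the 3 treated PMJ2R libraries, blue points the 3 treated ID8 libraries and ticks their means. Each pair of means lies within 2-fold, mt-Nd5 and mt-Nd2 standing higher in PMJ2R and Ftl1, mt-Nd6 and Rps15 lower.

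Most genes of the shared machinery lists lay within 2-fold, beside 39.4% of all tested genes. Among genes with at least 100 CPM in all 6 libraries the share was 78.98%. The counts of translation factors, reference genes and mitochondrially encoded genes lie near that share. Of 46 cytosolic ribosomal protein genes, 41 were within 2-fold, and Rpl26 and Rps2, named after their values were seen, were higher in ID8. The proteasome gave 30 of 31 within 2-fold and no call in either direction. Oxidative phosphorylation gave 35 of 40 within 2-fold with 4 higher in ID8, and translation factors 21 of 28. Reference genes gave 16 of 20 and mitochondrially encoded genes 10 of 13. Medians of the ribosomal and the oxidative phosphorylation lists, -0.076 and -0.14, turned to 0.088 and 0.010 once trends on length and GC content were removed, so no direction is given for either. Eef1a1, the elongation factor, was at 15905, 15771 and 15469 CPM in PMJ2R and 8009.7, 8422 and 8150.3 in ID8, 0.94 ± 0.072, and its interval of 0.78 to 1.09 reached past 2-fold. Gapdh, often used as a reference gene, differed by -1.16 ± 0.072 and was called higher in ID8 at 4131 ± 268 against 1847 ± 69.9 CPM. Cfl1, cofilin, stayed within 2-fold (0.35 ± 0.088). Psmd2 and Psmc5 of the proteasome and Atp5b, Cox4i1 and Cox8a of respiration were within 2-fold as well, at -0.19 ± 0.066, -0.59 ± 0.08, 0.00046 ± 0.064, -0.16 ± 0.089 and -0.23 ± 0.083.

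The E-box CACGTG, which Myc-Max and the lysosomal factor TFEB recognise, was present in 11.5% of 1014 windows of shared high genes (821 of 1056 had a window), against 8.33% of windows of tested genes, 6.02% of all windows, 5.78% in genes at least 32-fold higher in PMJ2R and 5.65% in those at least 32-fold higher in ID8. The AP-1 site TGANTCA was found in 4.04% of shared high windows, 4.56% of windows of tested genes, 6.22% and 7.38% for the PMJ2R and ID8 genes and 6.75% of all windows. The window of Lamp1, a lysosomal membrane protein, held 4 E-boxes, as many as any shared high gene, and is shown for that reason (chr8:13158911-13159160, plus strand, GRCm38.p6, capitals mark E-boxes).
Lamp1: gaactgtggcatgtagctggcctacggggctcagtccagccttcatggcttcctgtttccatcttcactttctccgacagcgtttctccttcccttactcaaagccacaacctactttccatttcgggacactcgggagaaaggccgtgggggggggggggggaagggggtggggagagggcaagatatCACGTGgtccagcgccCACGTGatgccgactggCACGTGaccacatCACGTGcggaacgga
Lamp1 stood at 1548, 1554 and 1517 CPM in PMJ2R and 854, 907 and 828 in ID8, a log2 difference of 0.84 ± 0.063 with an interval of 0.70 to 0.97. It was chosen after its window was searched.

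Many genes were low in both lines. Of 55421 identifiers, 25445 had no count in any of the 6 treated libraries, and of 21976 protein-coding genes 5098 had none and 7188 at most 3 counts in each line. A floor of 3 counts over a group equals 0.0543 CPM in PMJ2R and 0.0435 in ID8. Of the 955 different genes on the lists, 72 had at most 3 counts in each line and 33 no count at all, 18 of them also without a count in the 6 control libraries. Cdkn2a and Cdkn2b, inhibitors of the G1 kinases, were among those 18, as were the macrophage marker Timd4 and the neutrophil genes Ly6g and S100a9. These were picked from the list after their counts were seen. Line-restricted genes were the opposite case: 125 genes stood at 10 CPM or more in PMJ2R with at most 3 counts in ID8, and 303 at 10 CPM or more in ID8 with at most 3 counts in PMJ2R. Of these, 86 and 145 had no count at all in the other line. The depth allows no statement below the floors.

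To see which of these differences were there without the drug, the control libraries were compared in the same way. They share no library with the treated comparison. Of 15924 genes tested in control, 2890 (18.1%) were called higher in PMJ2R and 4076 (25.6%) higher in ID8. The same 4519 genes were called in the same direction in both comparisons, 64.5% of the 7009 called under rebastinib and 64.9% of the 6966 called in control, 1772 of them higher in PMJ2R and 2747 higher in ID8. Whether a difference changed was tested with an interaction contrast over all 12 libraries, in which 16566 genes were tested. That fit scaled all 12 libraries together, and the separate comparisons did not. Its shifts are therefore not plain differences of the 2 line differences, and those of Soat1 and Id2 below lie further toward ID8. This was not particular to these genes. The median shift over all genes tested was -0.10. The median line differences were -0.027 under rebastinib and -0.030 in control. Calls near the 2-fold limit can depend on this. The line ratio shifted at least 2-fold toward PMJ2R for 1823 genes (11.0%) and toward ID8 for 1907 (11.5%). The split moved with the scaling, to 2235 and 1376 under upper-quartile scaling, 2117 and 1477 under RLE scaling and 1674 and 2142 under library totals. With that test, 1103 differences arose under rebastinib (508 higher in PMJ2R and 595 higher in ID8), 744 were lost and 49 turned over, 38 of these to PMJ2R and 11 to ID8. Of the lost differences, 305 had been higher in PMJ2R and 439 in ID8 in control. Among them 58 and 206 genes were too low under rebastinib to be tested there. Markers of other cells also differed between control and treated libraries. In PMJ2R, neutrophil and mast cell markers summed to 17.6 to 20.6 CPM in control and 0.664 to 0.885 under rebastinib, and B cell markers to 196.5 to 221.8 and 106.8 to 108.6 CPM. T and NK cell markers there summed to 23.7 to 27.2 CPM in control and 10.5 to 12.1 under rebastinib. In ID8, endothelial markers summed to 112.8 to 122.6 CPM in control and 65.2 to 74.5 under rebastinib. Each sum carries the scaling of its own comparison, control or treated. On 1 scale for all 12 libraries the control sums would be lower and the treated sums higher, so the falls would be smaller. The part of these markers in the shifts was not tested.

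Genes whose direction turned toward PMJ2R included stress and early-response genes. For these, CPM are given on the scale shared by all 12 libraries, whose scaling factors were 0.823 to 0.916 in treated and 1.14 to 1.20 in control libraries. Soat1, which esterifies cholesterol, averaged 434 CPM in control and 580.4 CPM with rebastinib in PMJ2R, and 1306 and 251 CPM in ID8. Its line difference was -1.70 ± 0.062 in control and 1.27 ± 0.069 under rebastinib, a shift of 2.80 ± 0.091 (adjusted p = 6.45e-17). Ero1l, the oxidase of protein folding in the endoplasmic reticulum, averaged 54.9 CPM in control and 344 CPM with rebastinib in PMJ2R, and 171 and 165 CPM in ID8, with a shift of 2.70 ± 0.089. The line differences of Soat1 and Ero1l under rebastinib fell under 2-fold, to 0.82 and 0.79, once trends on length and GC content were removed, and that of Ero1l to 0.96 with library totals. Ier2, an immediate-early gene, went from -1.79 ± 0.082 to 2.10 ± 0.09 and averaged 18.5 CPM in control and 164 CPM with rebastinib in PMJ2R, and 59.3 and 40.1 CPM in ID8. Chac1, which degrades glutathione, went from -2.90 ± 0.076 to 1.67 ± 0.14, with ID8 at 80.2 CPM in control and 3.21 with the drug. Kank3, whose exons overlap Rps28 on the other strand, went from -4.06 ± 0.11 to 1.98 ± 0.17. Tle3, Kdm5b and Taf9b turned likewise, to 1.82 ± 0.076, 1.69 ± 0.087 and 1.59 ± 0.17.

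Fewer genes turned toward ID8. Slc14a1, a urea transporter, had a line difference of 2.05 ± 0.18 in control and -7.18 ± 0.18 under rebastinib, and averaged 4.41 CPM in control and 0.474 CPM with rebastinib in PMJ2R, and 0.982 and 73.2 CPM in ID8. Cish (a call that ended under glmTreat at -1.19), a feedback inhibitor of cytokine signalling, was 55.3, 57.1 and 61.8 CPM in the PMJ2R controls and 2.09, 1.86 and 1.84 after the drug, and its line difference went from 3.49 ± 0.086 to -1.19 ± 0.20. Cited2 and Ppargc1b, transcriptional coregulators, turned to -1.46 ± 0.12 and -1.61 ± 0.15. The metallothionein gene Mt2, which binds zinc, was uneven among treated ID8 libraries, at 52.8, 32.5 and 29.1 CPM against 19, 18.1 and 18 in PMJ2R. Of the 6 tested metallothionein and zinc genes 1 was higher in PMJ2R, 2 were higher in ID8 and 3 within 2-fold. The shares over all tested genes were 21.9%, 26.5% and 39.4%. The PMJ2R gene was Mtf1, the zinc-sensing transcription factor (1.01 ± 0.082), and its call ended at 0.99 in DESeq2 and under RLE scaling, at 0.86 under library totals and at 0.84 with length and GC trends removed. The line difference of Mt2, -1.05 ± 0.17, dropped to -0.78 without the first ID8 library, under the 2-fold limit. Mcam gave -1.17 ± 0.40, and without the first PMJ2R library -0.87, without the third ID8 library -0.94, both under the limit. Without the second PMJ2R library it stood at -1.08 and missed the adjusted p. Ankrd13d turned as well, to -1.62 ± 0.33.

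Among differences that arose with the drug, Junb, an AP-1 subunit, stood at 349, 351 and 335 CPM in treated PMJ2R and 76.1, 74 and 66.4 in treated ID8 (log2 difference 2.26 ± 0.067, against -0.77 ± 0.062 in control). Its exons overlap Prdx2 on the other strand. Txnip, which answers to glucose, went from 0.082 ± 0.062 to 2.48 ± 0.066, the mitochondrial folate enzyme Aldh1l2 from 0.48 ± 0.063 to 3.12 ± 0.088, and the myeloid factor Cebpd from 0.44 ± 0.079 to 3.40 ± 0.09. The kinase gene Csnk1g3 and Ugcg, which makes glucosylceramide, reached 1.97 ± 0.081 and 1.89 ± 0.065. On the ID8 side, Arhgef18, a guanine nucleotide exchange factor, stood at 0.774, 0.575 and 0.775 CPM in PMJ2R and 24.9, 22.1 and 26.3 in ID8 under the drug (-5.11 ± 0.17, against -0.25 ± 0.063 in control). Over all 12 libraries it averaged 45.4 CPM in control and 0.813 CPM with rebastinib in PMJ2R, and 50.1 and 29.3 CPM in ID8. On the same 12-library scale Pml, the nuclear body gene, averaged 59.1 CPM in control and 3.73 CPM with rebastinib in PMJ2R, and 77.6 and 45.4 CPM in ID8. Its difference arose from -0.50 ± 0.062 to -3.54 ± 0.11. Vgll4, a TEAD cofactor, Hdac5, a histone deacetylase, Specc1 and Hip1 arose to -3.29 ± 0.10, -3.30 ± 0.099, -3.17 ± 0.084 and -1.60 ± 0.086.

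Lost differences held both directions. Vegfa, the vascular growth factor gene, was higher in ID8 in control (log2 difference -3.17 ± 0.081) and within 2-fold under rebastinib (-0.13 ± 0.061, interval -0.26 to -0.0039). It averaged 33.7 CPM in control and 182 CPM with rebastinib in PMJ2R, and 281 and 208 CPM in ID8. Spry4, a brake on ERK signalling, averaged 2.69 CPM in control and 60.1 CPM with rebastinib in PMJ2R, and 58.8 and 66 CPM in ID8, and its line difference went from -4.55 ± 0.11 to -0.073 ± 0.082. The stress genes Ddit4 and Trib3 went from -2.88 ± 0.067 and -2.49 ± 0.069 to 0.98 ± 0.063 and 0.83 ± 0.088, both near the 2-fold limit on the PMJ2R side. Removing length and GC trends put them past it, at 1.34 and 1.21. Mdfic and Actg1, gamma actin, ended at -0.054 ± 0.068 and 0.67 ± 0.06. Of the genes higher in PMJ2R in control, Id2 and Id3, which block helix-loop-helix factors, went from 4.04 ± 0.087 and 2.96 ± 0.086 to -0.91 ± 0.076 and -0.99 ± 0.092. Id2 averaged 100.1 CPM in control and 33.4 CPM with rebastinib in PMJ2R, and 5.64 and 65.6 CPM in ID8, with the group means moving in opposite directions. Both sat close to the limit on the ID8 side, and with library totals stood past it at -1.07 and -1.14. Id3 also passed it under DESeq2 at -1.02, and without the second or the third ID8 library at -1.06. Scamp5, Rnf19b, Steap3 and Abcc4 ended at 0.37 ± 0.092, -0.35 ± 0.071, -0.68 ± 0.11 and 0.017 ± 0.093.

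**Figure D4:**
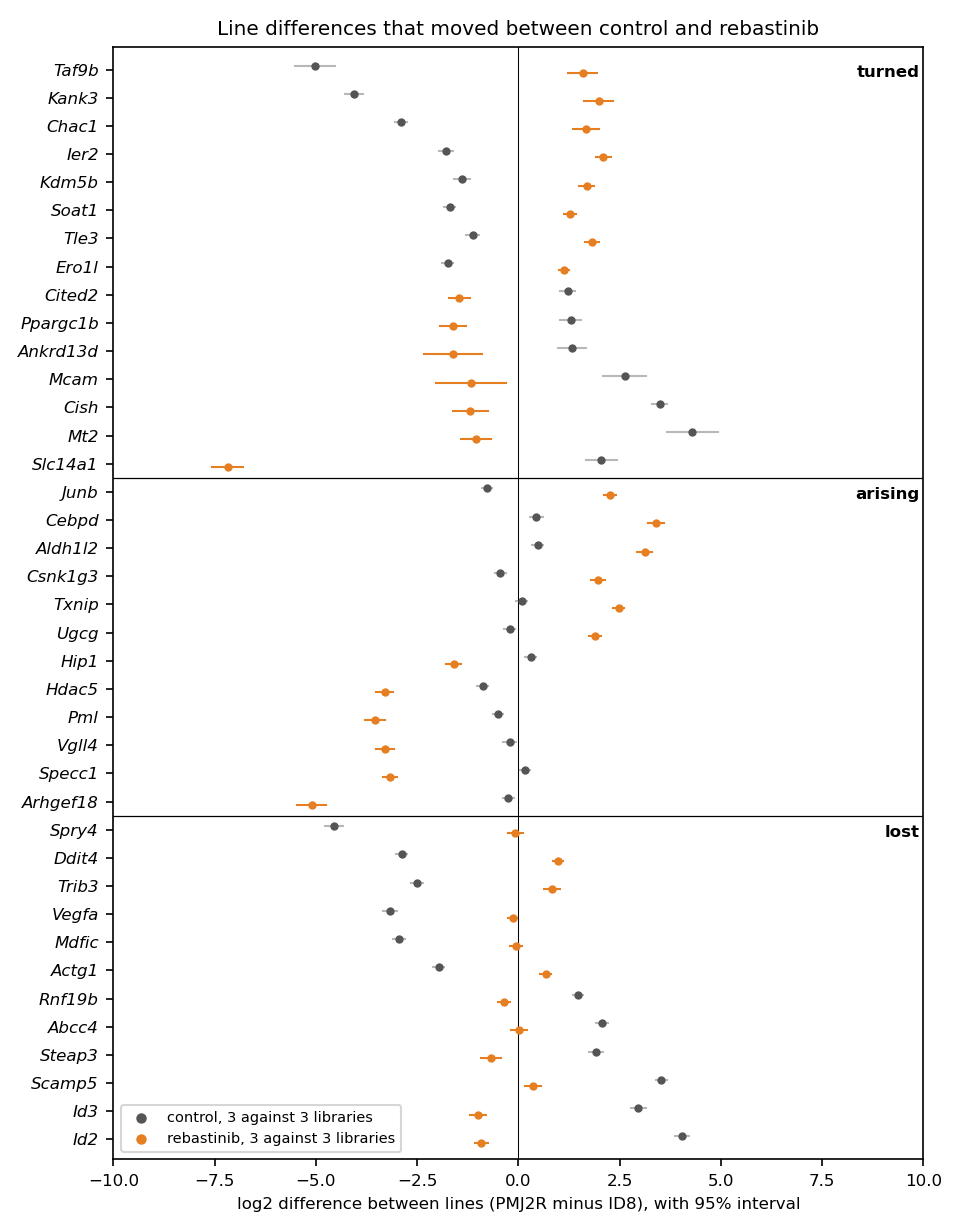
Line difference (log2, PMJ2R minus ID8, horizontal) of the 39 named genes that turned, arose or were lost (rows), in the control libraries (grey) and the rebastinib libraries (orange). Points are estimates from 3 against 3 libraries and lines their 95% intervals. Turned genes pass from beyond 2-fold on 1 side to beyond 2-fold on the other, arising genes start inside 2-fold in control and end outside it, and lost genes such as Vegfa, Spry4 and Abcc4 end inside it.

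Lists of response genes held such shifts as well, which were counted under the main scaling alone. Over all genes tested, 11.0% shifted toward PMJ2R and 11.5% toward ID8. Under rebastinib 21.9% were higher in PMJ2R, 26.5% higher in ID8 and 39.4% within 2-fold. In control 18.1% were higher in PMJ2R and 25.6% in ID8. Of 28 immediate-early and ERK feedback genes tested under rebastinib, 6 were higher in PMJ2R and 12 higher in ID8, while in control 1 was higher in PMJ2R and 20 in ID8. The ratio of 16 genes shifted toward PMJ2R and of 1 toward ID8. Etv4, Klf4 and Ier3 remained ID8 genes under the drug, at -5.52 ± 0.15, -3.01 ± 0.088 and -2.67 ± 0.08, and Spry2 at 25.2 ± 3.91 CPM against 1 PMJ2R count. Cholesterol genes shifted toward PMJ2R in 14 of the list and toward ID8 in 0. Under the drug 7 of 27 were higher in PMJ2R, 2 in ID8 and 16 within 2-fold, and the median went from -0.52 in control to 0.65. Idi1, an isomerase of the sterol pathway, stood at 72.2, 67.9 and 72.5 CPM in treated PMJ2R and 11.3, 13.7 and 16.5 in treated ID8 (2.35 ± 0.11, against 0.084 ± 0.076 in control, adjusted p of the shift = 1.58e-11). The 3 PMJ2R libraries lay above the 3 of ID8. Hsd17b7, of the same pathway, reached 1.61 ± 0.087, whereas the regulator Srebf1 was higher in ID8 (-1.31 ± 0.077, and -0.97 with length and GC trends removed). Abcg1, a cholesterol exporter, was at 17.2 ± 1.75 CPM in PMJ2R with no count in ID8.

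The unfolded protein and ATF4 list gave 3 genes higher in PMJ2R, 0 in ID8 and 17 within 2-fold of 22, where control had 1 and 7. The list shifted toward PMJ2R in 9 genes and toward ID8 in 0. Of all tested genes, 39.4% were within 2-fold under rebastinib. Sesn2, which restrains mTORC1 when amino acids are short, was at 326, 328 and 309.5 CPM in PMJ2R and 97.5, 109.6 and 97.3 in ID8 (1.66 ± 0.065), while Herpud1, Atf6 and Pdia4 lay within 2-fold at 0.76 ± 0.061, 0.69 ± 0.062 and -0.87 ± 0.057 (Pdia4 at -1.03 with library totals). Glycolysis and hypoxia genes had 7 higher in PMJ2R, 4 in ID8 and 14 within 2-fold of 27, and 9 shifted toward PMJ2R against 0 toward ID8. The lactate carriers Slc16a1 and Slc16a3 were higher in PMJ2R (1.71 ± 0.06 and 5.05 ± 0.14), as were Pdk1, which closes the entry to the citric acid cycle, Aldoc and Pfkp (3.81 ± 0.099, 3.96 ± 0.091 and 1.76 ± 0.057). Egln3, an oxygen sensor, was the exception at 72, 64.2 and 69.2 CPM in ID8 with no count in PMJ2R. Mitotic genes moved the other way. Of 28, 8 were higher in ID8 and 0 in PMJ2R under the drug, 0 and 2 in control, and 10 shifted toward ID8 against 0 toward PMJ2R. Over all genes tested these shares were 26.5% and 21.9% under the drug, 25.6% and 18.1% in control, and 11.5% and 11.0% for the shifts. The median shift was -0.69 for the mitotic list and -0.10 for all genes tested. Shifts of lists were not counted under another scaling. Foxm1, a driver of mitotic transcription, stood at 13, 12.3 and 12.7 CPM in PMJ2R and 47.6, 50.6 and 45.4 in ID8. Cdk1, Kif23, Birc5 and Plk1 reached -1.21 ± 0.069, -1.34 ± 0.077, -1.26 ± 0.08 and -1.12 ± 0.067, and Tpx2 at -0.94 ± 0.06 was under the limit. Plk1 dropped to -0.79 with length and GC trends removed, and Tpx2 passed the limit at -1.09 with library totals.

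**Figure D5:**
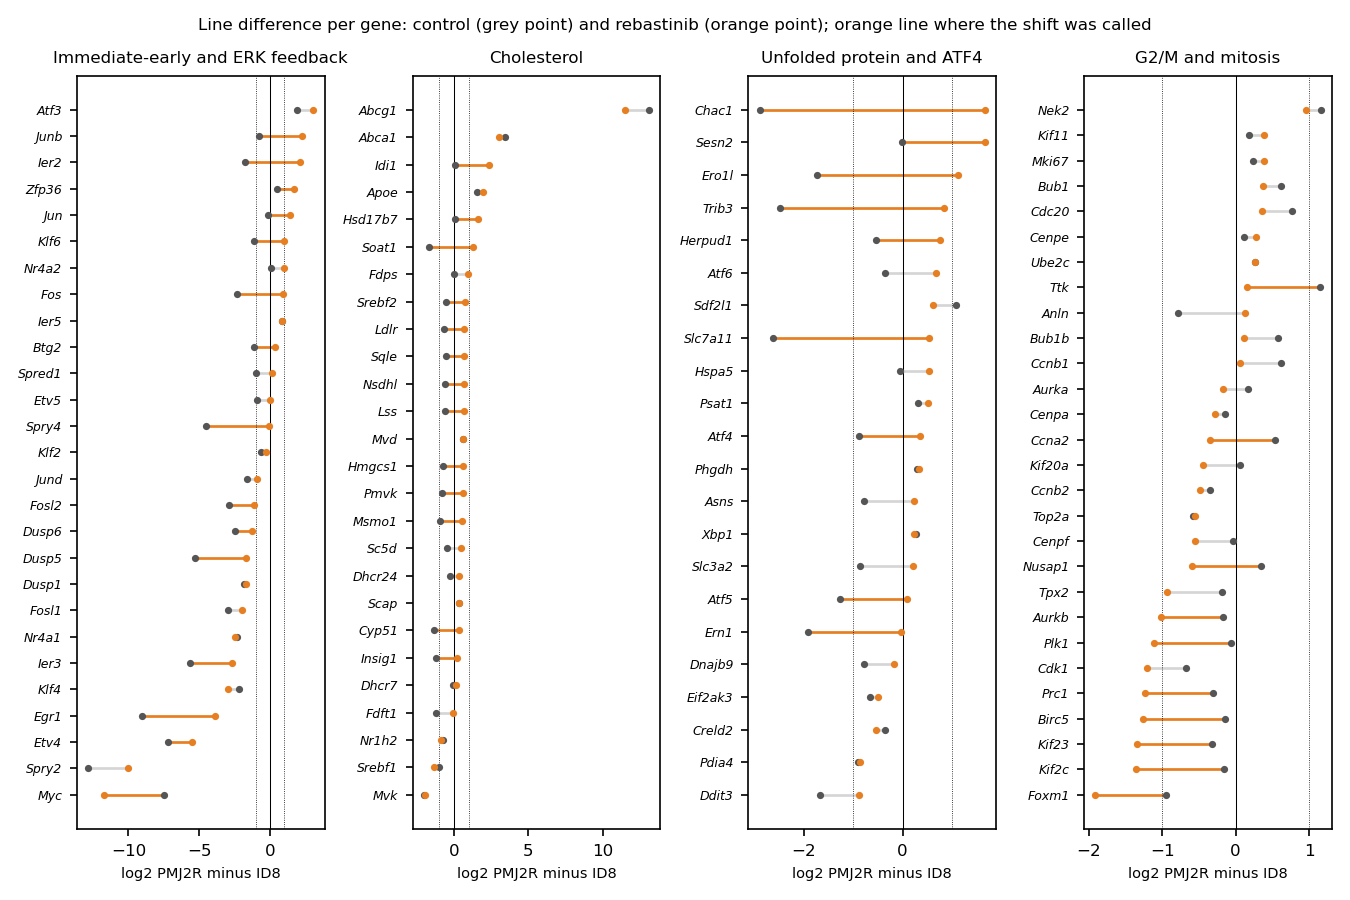
Line difference (log2, PMJ2R minus ID8, horizontal) per gene (rows) of 4 lists, grey points for control and orange points for rebastinib libraries, joined by an orange line where the shift was called and a pale line where it was not. Dotted lines mark 2-fold. Most called shifts in the first 3 panels run rightward, toward PMJ2R, and those of the mitotic panel run leftward. Genes not tested in control, such as Egr2, and genes not reported here are left out.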

How the data were processed

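Messenger RNA of 12 libraries was measured, 3 for each of 2 lines with and without rebastinib. The deposited values are raw counts per gene that the authors made, per the submitters' processing notes with STAR 2.6.1c and featureCounts on GRCm38, with FastQC and DESeq2 also named. No source used here states their strand setting or filters. From these counts edgeR 4.0.16 (R 4.3.3, limma 3.58.1) ran a robust quasi-likelihood test on 3 against 3 libraries after TMM scaling and filterByExpr, with Benjamini-Hochberg adjustment over all genes tested. A gene was called at adjusted p under 0.05 with at least a 2-fold difference. SE is the size of the log2 difference divided by the square root of F. CPM in the text carry the TMM factors of their own comparison unless the 12-library scale is named. A gene with no count in 1 line is given as at least a fold, from 3 counts over the group, and 1 to 3 counts as a ratio with its counting interval, which covers counting error only. TPM use GENCODE exonic lengths. The 181 identifiers without a symbol held 0.00261% of the counts. The code was tested on simulated data.

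Named genes were the 12 per direction with the largest fold at 50 CPM or more, up to 8 turned and 6 arising or lost genes per direction by interaction p, the 15 most abundant shared high genes by TPM, up to 6 (4 for shared machinery) members of each list by p or TPM, and the 14 rebastinib target genes. A few genes that the rule or the lists hold are not reported here. Unnamed gene models, pseudogenes and antisense genes were left out. The members and lists were chosen with earlier results of these data known. DESeq2 1.42.0, limma-voom, glmTreat, other scalings and filters, length and GC trends, left-out libraries and a replicate block were alternatives. Promoter windows are RefSeq's (GRCm38.p6).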

Additional observations from a re-analysis of the deposited data

Results flagged for a closer look

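The line difference itself differed between rebastinib and control libraries by the interaction test, toward PMJ2R for 1823 genes and toward ID8 for 1907. For that reason 39 named genes of this kind are listed with the line difference under rebastinib minus that in control, in log2 units from edgeR's quasi-likelihood fit of 12 libraries. The scaling of that fit is its own, so the values differ from plain differences of the separately fitted line differences given above. Genes that turned toward PMJ2R gave Kank3 5.88, Soat1 2.80, Ero1l 2.70, Chac1 4.4, Ier2 3.72, Tle3 2.77, Kdm5b 2.91 and Taf9b 6.44. Those that turned toward ID8 gave Slc14a1 -9.40, Cish -4.85, Cited2 -2.84, Ppargc1b -3.08, Mt2 -5.51, Ankrd13d -3.12 and Mcam -3.97.

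Differences that arose on the PMJ2R side gave Junb 2.86, Txnip 2.23, Aldh1l2 2.47, Cebpd 2.79, Csnk1g3 2.25 and Ugcg 1.93, and on the ID8 side Specc1 -3.49, Arhgef18 -5.03, Pml -3.21, Vgll4 -3.25, Hdac5 -2.59 and Hip1 -2.07. Differences lost from ID8 gave Ddit4 3.69, Spry4 4.31, Trib3 3.16, Mdfic 2.72, Actg1 2.47 and Vegfa 2.86, and lost from PMJ2R Id2 -5.12, Scamp5 -3.34, Id3 -4.12, Rnf19b -2.0, Steap3 -2.77 and Abcc4 -2.22. The treated libraries also held more counts over ribosomal RNA models than the controls, in PMJ2R above all, and the part of this in the shifts was not tested.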

How the results depend on the processing

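The count of genes within 2-fold stayed within 1.5 times in all 12 alternatives. Without the filter on low counts more genes were tested, and 5281 were higher in PMJ2R under rebastinib against 4934 in ID8, the reverse of the reported order, and 109 turned. The order of the shifts, 1823 toward PMJ2R against 1907 toward ID8, also changed with the setting. With a mean of at least 5 CPM fewer genes were tested, and under rebastinib 1725 were higher in PMJ2R and 2212 in ID8, in control 1578 and 2395, with shifts toward PMJ2R for 1067 and toward ID8 for 1061. The classes then held 2404 kept, 19 turned, 616 arising and 422 lost differences. Testing against a 2-fold limit with glmTreat, a stricter criterion by construction, left 911 and 805 shifts, 20 turned, 525 arising and 400 lost. With the spread taken from all 12 libraries 91 differences turned, and limma-voom gave 1189 lost, and the cause was not tested.

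Leaving out each library in turn gave 3233 to 3459 genes higher in PMJ2R and 3923 to 4018 higher in ID8 under rebastinib, 2946 to 3038 and 4216 to 4317 in control, 5298 to 5856 within 2-fold, and shifts toward PMJ2R for 1690 to 1954 and toward ID8 for 1804 to 2001. The classes ranged from 4523 to 4669 kept, 45 to 58 turned, 1053 to 1272 arising and 674 to 785 lost.

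Same-numbered libraries of different groups correlated at -0.73 to 0.30 across genes in their deviations from the group mean, and other-numbered ones at -0.54 to 0.65. With 3 libraries per group these values cannot decide whether the numbers pair the samples. With the replicate number as a block, 3184 and 3825 genes were called under rebastinib, 2882 and 4076 in control, and 1788 and 1862 shifted, with 5691 genes within 2-fold and 4519 kept, 49 turned, 1094 arising and 725 lost. Library totals moved the share of calls higher in PMJ2R from 45.2% to 39.6%. Depth limits the folds of genes with 0 to 3 counts in 1 line, which are given as bounds or with counting intervals.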
